A study of Homo sapiens with 9 samples.

Results

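The genes described here are those measured in CAL-1 cells carrying the second of 2 CRISPR interference knockdowns of KHSRP, against the control cells of the same study. CAL-1 is an established human line grown from BPDCN (blastic plasmacytoid dendritic cell neoplasm), an aggressive blood cancer of the cells that give rise to plasmacytoid dendritic cells. Of the 25540 gene symbols in the expression table, 10938 had a mean of at least 1 TPM over the 6 libraries compared and were tested. TPM is a share of a library's transcripts, scaled for transcript length so that all symbols of a library sum to 1000000. The 6 libraries were 3 controls labelled NTC, whose genotype is given as WT, and 3 labelled KHSRPi#2, whose genotype is given as KHSRP knockdown. Another group of 3 libraries, KHSRPi#1, also a KHSRP knockdown, entered the fit to help estimate the spread and is set beside the results where both knockdowns were compared. What #1 and #2 mean is not explained in the labels, and they are read here as 2 guide RNAs against KHSRP (guide 1 and guide 2). Neither the guide sequences, the repressor, the time after knockdown nor whether replicates were separate cultures are stated in the labels, so the spread behind each p-value may be that of technical repeats. All libraries come from bulk RNA of a single line, in which fewer cells with a transcript and less of it per cell cannot be told apart.

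KHSRP (KH-type splicing regulatory protein) binds RNA through KH domains. It is known for bringing decay enzymes to mRNAs with AU-rich elements, short AUUUA-containing stretches of the 3' UTR found in many cytokine and immediate early mRNAs, and for roles in splicing and in the processing of some microRNA precursors. In CRISPR interference a guide RNA leads a nuclease-dead Cas9, usually fused to a repressor domain, to the start of a gene and lowers its transcription without cutting DNA.

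Depth in reads is unknown, because TPM holds no totals. Judged by the spacing of low values, which reflects the worth of a single read, the guide 2 libraries had 1.53, 0.98 and 1.11 times the depth of NTC replicate 1, and the other controls at 1.48 and 1.83 times. Between 13966 and 14462 symbols were above 0 in each of the 9 libraries of the series. The replicate 3 library stood apart from replicates 1 and 2 in the control and in the guide 2 group: on the first principal component of the 6 libraries (40.7% of the variance) the replicate 3 libraries were at 13.1 and 14.4 and the others between -10.1 and -3.68. In a fit over all 9 libraries, guide 1 included, replicate 3 was higher at 2041 of the 10938 tested genes and lower at 1270. These calls were made at a limma adjusted p under 0.05. Each result is therefore given from a fit without covariates, and, where the call changes, also from a fit with a term for the replicate 3 libraries, which takes up the difference common to the groups. Fold changes are log2 differences of TPM + 1, so that changes of low genes appear smaller than they are.

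KHSRP itself was reduced in every guide 2 library. It was at 253, 244 and 216 TPM in the controls and at 35.8, 33.7 and 36.5 TPM with guide 2. The groups were far apart, and the guide 2 mean was 14.9% of the control mean. The log2 fold change was -2.71 (SE 0.06, 95% interval -2.85 to -2.57, limma adjusted p = 7.77e-09). An exact permutation test of its TPM over the 20 divisions of 6 libraries gave p = 0.1, the smallest p that 3 against 3 allows. KHSRP lies on chromosome 19 from 6413348 to 6424794, on the minus strand (hg38, GENCODE 29). The 250 bases before its annotated start, at chr19:6424812-6425061 on the minus strand of GRCh38.p14 (RefSeq), are shown as the region next to which CRISPR interference acts, although the position of the guides is not stated in the labels. Capitals mark the pentamer ATTGG, the CCAAT box read on the opposite strand.
KHSRP promoter: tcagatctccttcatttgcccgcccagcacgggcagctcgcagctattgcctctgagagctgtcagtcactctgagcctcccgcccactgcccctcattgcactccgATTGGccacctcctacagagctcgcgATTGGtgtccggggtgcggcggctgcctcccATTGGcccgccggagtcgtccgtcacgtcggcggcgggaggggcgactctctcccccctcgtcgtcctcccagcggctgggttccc
The CCAAT pentamer, searched on both strands in windows of 250 bases before to 50 after the start, occurs 3 times here and at least 3 times in 3.26% of 35116 promoters of that length. None of the 4 tested genes on either side of KHSRP passed. GTF2F1, ALKBH7, CLPP and MLLT1 on the side of lower coordinates and SLC25A23, DENND1C, TNFSF9 and CD70 on the other had log2 fold changes between -0.15 and 0.09. Of these 8, TNFSF9, a ligand of the TNF family, was the gene whose groups did not overlap, at 25.6, 25.2 and 24.8 TPM in the controls and 22.9, 23.2 and 22.0 TPM with guide 2 (log2 fold change -0.15, adjusted p = 0.692). Over all tested genes the guide 2 libraries lay below all controls at 3.49% and above them at 7.85%, so 1 such gene among 8 does not set the neighbours apart.

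**Figure D1:**
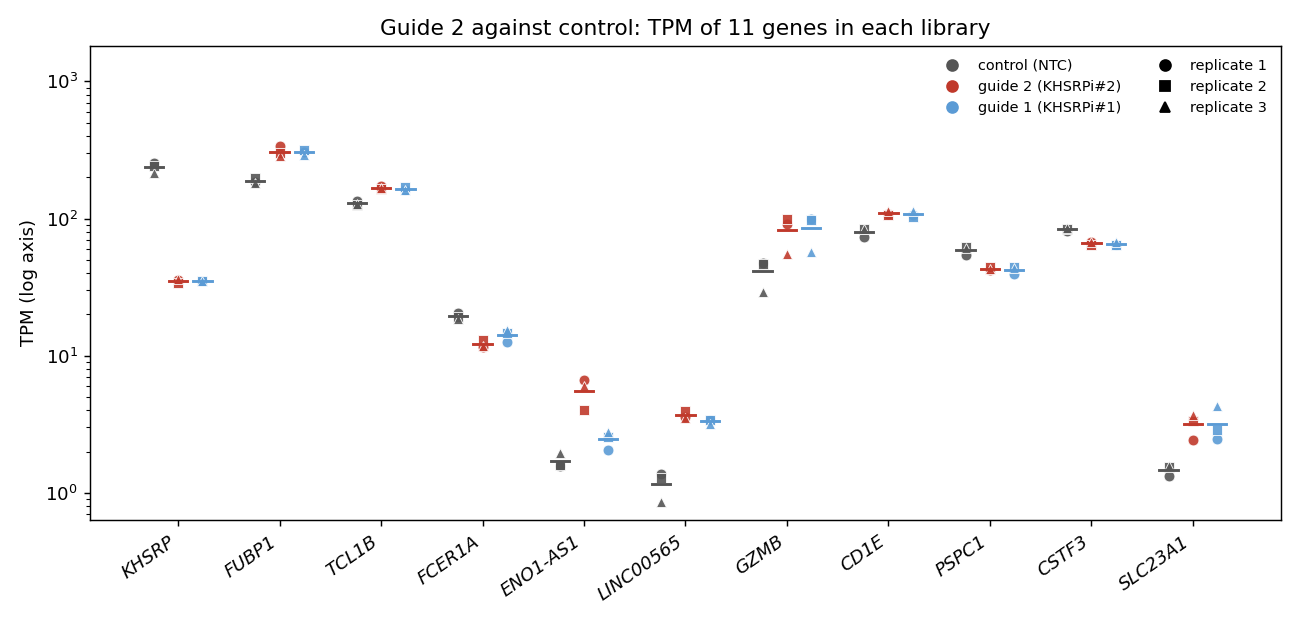
TPM of 11 genes in each library, on a log axis. Colours mark the groups, symbols the replicate number and bars the mean of 3 libraries; KHSRP lies lowest against its controls, GZMB is lower in replicate 3 of each group, and in ENO1-AS1 the guide 2 libraries (4.00 to 6.68 TPM) lie above those of guide 1 (2.07 to 2.77 TPM).

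Few genes passed beside the target. Without covariates 6 of the 10938 tested genes passed at a limma adjusted p under 0.05 (0.0549%). The 4 that rose (0.0366%) were FUBP1, LINC00565, ENO1-AS1 and TCL1B, and the 2 that fell (0.0183%) were KHSRP and FCER1A. An unadjusted p under 0.05 was reached by 758 genes (6.93%). With the term for replicate 3, 66 genes rose (0.603%) and 23 fell (0.21%), 89 in all (0.814%), and all 6 were among them; 1713 genes (15.7%) had an unadjusted p under 0.05. Fitting replicates 1 and 2 alone, an alternative added after seeing the data, called 4 genes (0.0366%), namely KHSRP, FUBP1, LINC00565 and GZMB. The 3 guide 2 libraries lay above all 3 controls at 859 genes (7.85%) and below them at 382 (3.49%). Among the 89 genes, where the same measure chose them, 51 lay above and 17 below. The changes were small: the median size of the log2 fold change among the 89 genes was 0.39, and 12 of all tested genes exceeded 1 in either direction. The median of all tested genes was 0.03, with 6770 genes (61.9%) above 0. Rescaling moved that median to about 0 and the balance of calls with it: median-ratio rescaling gave 4 higher and 5 lower and quantile normalization 4 and 4 without the term, and with it 58 and 43, and 68 and 45.

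**Figure D2:**
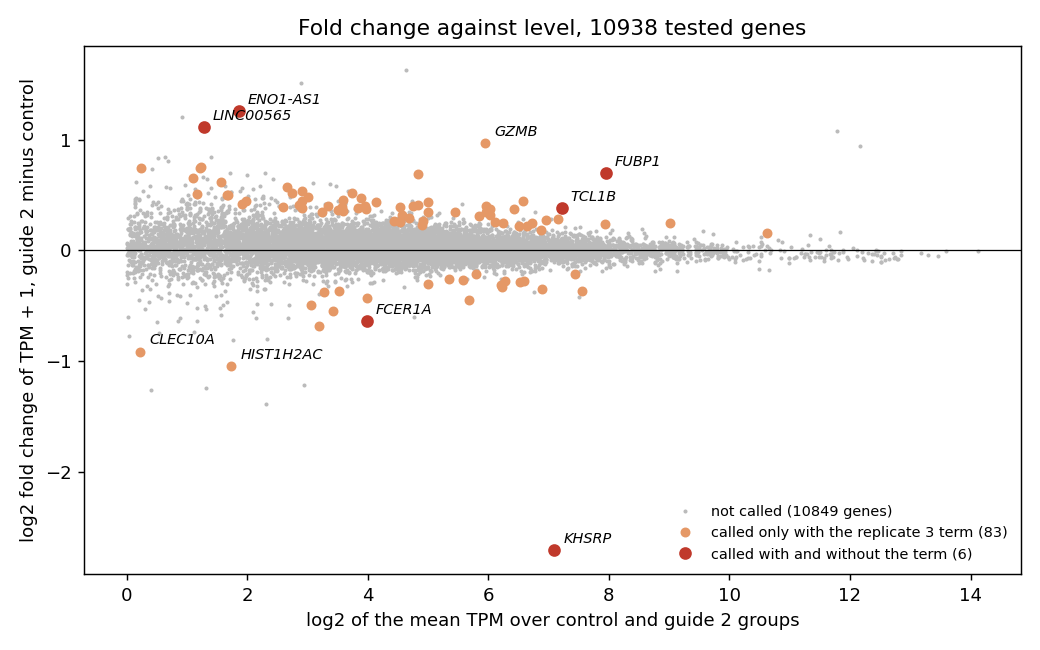
Log2 fold change of TPM + 1 (guide 2 minus control) against the log2 of the mean TPM, 1 point a gene. The 6 genes called with and without the replicate 3 term are dark red, the 83 called only with the term are orange; KHSRP is the lowest point, at -2.71.

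How many genes passed with the term depended on single libraries. Leaving out NTC replicate 3 left 29 genes, KHSRPi#2 replicate 3 left 28, KHSRPi#2 replicate 1 left 37 and KHSRPi#2 replicate 2 left 36, while 64 passed without NTC replicate 1 and 139 without NTC replicate 2. Of the 89 genes, 18 passed whichever of the 9 libraries was left out, and 7 in 0 of these 9 fits. KHSRP, FUBP1, LINC00565, ENO1-AS1, TCL1B, FCER1A, GZMB, CD1E, CSTF3, ATP6V1F and LOC101928000 were among those 18. So was CLEC10A, but it reached the tested mean of 1 TPM through the controls alone. These fits kept the same tested genes, so its passing them does not remove that limit. Without the term, KHSRP, FUBP1 and LINC00565 passed in all 9 fits. ENO1-AS1 did not pass without NTC replicate 1, 2 or 3, KHSRPi#2 replicate 1 or 3, or KHSRPi#1 replicate 2 (adjusted p up to 0.154). TCL1B was lost without NTC replicate 2 or 3 or any KHSRPi#2 library (up to 0.136), and FCER1A without any of those 6 libraries or KHSRPi#1 replicate 2 (up to 0.187).

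FUBP1, which had the smallest adjusted p of the genes that rose without covariates, encodes far upstream element binding protein 1, a KH-domain protein of the same family as KHSRP that binds single-stranded DNA and RNA. It was at 185, 197 and 182 TPM in the controls and at 337, 301 and 284 TPM with guide 2. Every guide 2 library was well above every control, and the log2 fold change was 0.70 (SE 0.07, limma adjusted p = 0.00343, or 2.06e-05 with the term). FUBP1 lies on chromosome 1 from 77944055 to 77979110, on the minus strand. FUBP3, the other member of that family, was at 60.2, 61.5 and 60.3 TPM in the controls and 67.1, 58.8 and 59.1 TPM with guide 2, so that its groups overlapped (log2 fold change 0.02, 95% interval -0.12 to 0.16, adjusted p = 0.960); its sign flipped under median-ratio rescaling and without KHSRPi#2 replicate 1.

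The rest of the KH-domain proteins showed small differences. Of 24 tested members FUBP1 rose and KHSRP fell, and the other 22 had log2 fold changes from -0.15 (PCBP4) to 0.14 (IGF2BP3). The list's median was 0.01 against 0.03 over all genes and turned negative under both rescalings. Proteins that bind AU-rich elements, among them stabilizers such as ELAVL1 and decay factors such as ZFP36, had 11 of 20 members below 0 and a median of -0.02, with 0 called without the term. ZFP36L1, a decay factor of the ZFP36 family, was at 45.0, 48.8 and 62.8 TPM in the controls and 39.1, 38.1 and 52.4 TPM with guide 2. Its groups overlapped because both replicate 3 libraries were high. With the term it fell by 0.27 on the log2 scale (adjusted p = 0.0384, and 0.765 without it), and passed in 2 of 9 fits that left out a library (up to 0.175), those without NTC replicate 1 or KHSRPi#1 replicate 1. ZFP36 was at 82.2, 85.8 and 75.0 TPM and then 65.9, 70.3 and 66.7 TPM; its groups did not overlap, and it did not pass (log2 fold change -0.25, adjusted p = 0.438, or 0.0512 with the term).

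A list of mRNAs with AU-rich elements was next compared. Which of them KHSRP binds in these cells was not measured. Many AU-rich elements hold copies of ATTTA, single, apart or overlapping, in the DNA sequence of the 3' UTR. Stretches of 30 bases from 4 such mRNAs show how they differ in density (GENCODE 29 transcripts, hg38, with capitals for ATTTA). They are at chr2:112830001-112830030 (minus strand) for IL1B, chr6:31577999-31578028 (plus) for TNF, chr19:39409185-39409214 (plus) for ZFP36 and chr19:43648611-43648640 (minus) for PLAUR, each in the 3' UTR.
IL1B: agcaaccgcttccctATTTATTTATTTAtt
TNF: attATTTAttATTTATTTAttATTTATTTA
ZFP36: ggccctttATTTAtgacgactttATTTAtt
PLAUR: tgttattaattaatattcatattATTTAtt
Of 25 tested AU-rich element mRNAs (immediate early genes, cytokines and growth regulators), 0 passed without covariates and IL1B fell with the term. The list's median log2 fold change was -0.12, with 18 members below 0, against a median of 0.03 for all genes; with replicates 1 and 2 alone it was -0.14, with 20 below 0. In 2 members all guide 2 libraries lay below all controls and in 0 above, where 3.49% and 7.85% of all tested genes did. Summed, the 41 listed mRNAs took 968 to 1099 TPM in the controls and 931 to 1081 TPM with guide 2, so that the groups overlapped. The lower median of this list in the knockdown was seen in earlier results of the same libraries and is described, not tested. IL1B, which encodes interleukin-1 beta, was at 8.08, 8.52 and 16.6 TPM in the controls and at 6.07, 6.29 and 12.5 TPM with guide 2. Replicate 3 was the highest library of each group, so the groups overlapped. Each guide 2 library lay below the control of its number, but the replicate numbers did not pair the libraries by the rule used. The log2 fold change of IL1B was -0.38 (SE 0.32, adjusted p = 0.820), and with the term the SE was 0.07 and the adjusted p 0.0317. In the 9 fits with the term that left out a library it passed in 2, those without KHSRPi#1 replicate 1 or 3 (up to 0.178). TNF, a cytokine, was at 17.9, 20.5 and 24.2 TPM and then 16.6, 16.0 and 22.3 TPM (log2 fold change -0.18, adjusted p = 0.818, or 0.201 with the term). PLAUR, the urokinase receptor, was at 95.8, 94.3 and 124 TPM and then 88.8, 87.8 and 107 TPM (-0.14, adjusted p = 0.824, or 0.135 with the term). In both, the replicate 3 libraries were the highest of their group and the groups overlapped.

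Across all genes the presence of ATTTA in the 3' UTR did not go with lower levels. In one annotated transcript per gene (9701 genes), 2988 genes without ATTTA had a median log2 fold change of -0.004, and 2330 genes with at least 6 copies had 0.07. The nonamer TTATTTATT, which contains ATTTA, occurred in 804 genes, whose median was 0.04. Genes with many copies have long 3' UTRs, with a median length of 3314 bases at 6 or more copies and 333 bases at none. By length of the 3' UTR the median went from 0.004 up to 500 bases to 0.07 over 4000 bases, and for guide 1 from 0.002 to 0.008. Within each length class, genes with more ATTTA copies than the class median had the higher median for guide 2. The values were 0.02 against -0.003 up to 500 bases, and 0.10 against 0.05 over 4000 bases. The libraries of the groups overlapped in that longest class: the controls were at -0.08, 0.05 and 0.02 and guide 2 at 0.13, -0.002 and 0.09, each as the median of log2(TPM + 1) minus the mean of the controls. Within guide 2 these values rose with relative depth, from -0.002 at 0.98 times to 0.09 at 1.11 and 0.13 at 1.53 times. Those of guide 1 did so as well, at -0.05, 0.04 and 0.05 for 1.33, 1.38 and 1.42 times. Among the controls the shallowest library, NTC replicate 1, was the lowest, but the deepest, NTC replicate 3, lay below NTC replicate 2. Across groups the order did not hold, as KHSRPi#2 replicate 3, at 1.11 times, lay above NTC replicates 2 and 3. The part of depth in this pattern was not tested. Of the 47 genes with a 3' UTR that rose with the term 61.7% held ATTTA, as did 65% of the 20 that fell, against 69.2% of all. The 3' UTRs of these called genes were shorter, with medians of 442 and 510 bases against 1017 for all.

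**Figure D3:**
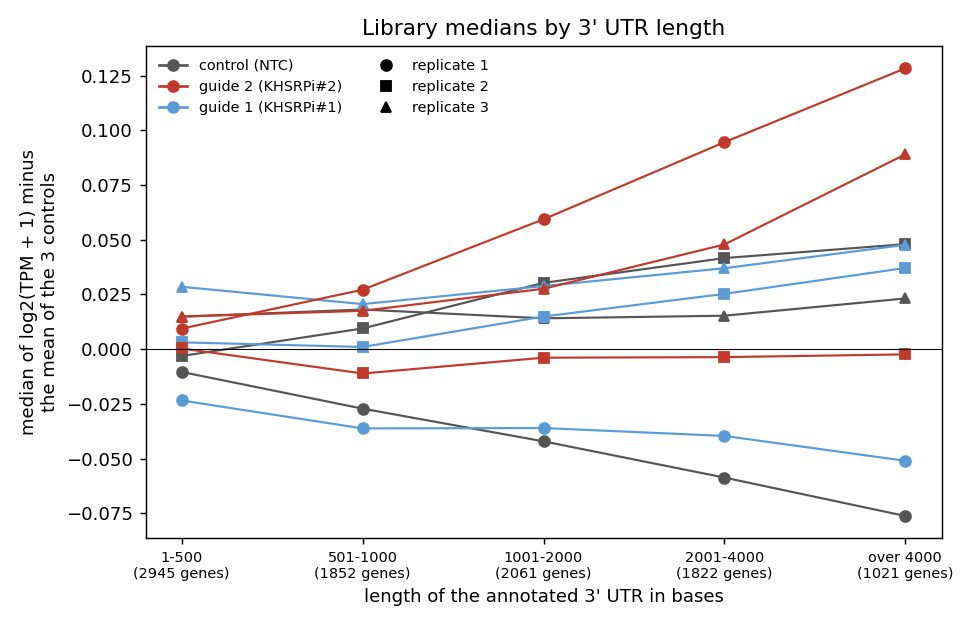
Median over genes of log2(TPM + 1) minus the mean of the 3 controls, by length of the annotated 3' UTR in bases, 1 line per library. The lines spread towards long 3' UTRs, and in the class over 4000 bases the control and guide 2 libraries overlap.

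Plasmacytoid dendritic cell genes moved in both directions. These cells sense nucleic acids through endosomal Toll-like receptors and are a major source of type I interferon. Of their defining markers TCF4 (188 to 240 TPM over the 6 libraries), IRF8 (2284 to 2824 TPM), CLEC4C and GZMB were present in every library. LILRA4 was below the threshold at 0.617 and 1.02 TPM, and IL3RA was listed at 0. How reads were counted is not stated in the sources, so that 0 does not show that IL3RA is not expressed. Of 34 tested markers TCL1B rose and FCER1A fell without covariates; with the term GZMB, CLEC4C and IRF7 rose as well. The list's median was 0.09 with 25 members above 0, against 0.03 for all genes.

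TCL1B, a relative of the TCL1A oncogene, was at 133, 125 and 129 TPM in the controls and at 174, 165 and 167 TPM with guide 2. These groups were narrow and well apart (log2 fold change 0.38, SE 0.05, adjusted p = 0.0219, or 0.00166 with the term). FCER1A encodes the IgE-binding alpha chain of a receptor that plasmacytoid and conventional dendritic cells share. It was at 20.6, 19.3 and 18.4 TPM and fell to 11.6, 13.0 and 11.8 TPM, with no overlap (log2 fold change -0.64, SE 0.08, adjusted p = 0.0292, or 0.00387 with the term). Both calls without the term were lost when single libraries were left out, as given above, and held in all 9 such fits with it. Without the term TCL1B was also lost with median-ratio rescaling (adjusted p = 0.0505), FCER1A with no filter on low values (0.127), and both with only the 2 groups compared in the fit (0.106 and 0.0518) or replicates 1 and 2 alone (0.0748 and 0.0705).

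GZMB encodes granzyme B, a serine protease abundant in plasmacytoid dendritic cells. It was at 47.7, 46.8 and 28.98 TPM in the controls and at 91.8, 99.7 and 55.1 TPM with guide 2. The guide 2 libraries lay above all controls, with replicate 3 lower in both groups. Its log2 fold change of 0.97 had an SE of 0.28 without the term (adjusted p = 0.490) and 0.05 with it (adjusted p = 5.9e-07). With replicates 1 and 2 alone the log2 fold change was 1.00 (adjusted p = 6.85e-05), and the call with the term held whichever of the 9 libraries was left out. CLEC4C, the surface lectin BDCA-2, was at 59.0, 64.4 and 46.7 TPM and then 83.8, 73.5 and 63.8 TPM. IRF7, the transcription factor that drives interferon genes, was at 15.7, 14.2 and 10.9 TPM and then 20.1, 17.9 and 15.6 TPM. For each the lowest guide 2 library, replicate 3, lay within the range of the controls. Both had a log2 fold change of 0.38 and passed with the term only (adjusted p = 0.0135 for CLEC4C and 0.0263 for IRF7, against 0.663 and 0.638). CLEC4C was lost there without NTC replicate 3 or KHSRPi#2 replicate 1 or 3 (up to 0.109), and IRF7 without NTC replicate 2 or 3 or KHSRPi#2 replicate 1 or 3 (up to 0.163). The receptors TLR7 and TLR9 had log2 fold changes of 0.30 and 0.25 and did not pass (adjusted p = 0.692 and 0.804, or 0.118 and 0.300 with the term).

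Genes of conventional dendritic cells and of antigen presentation were also measured. CLEC10A, a lectin of conventional dendritic cells, was at 2.29, 1.91 and 1.30 TPM in the controls and at 0.552, 0.739 and 0.218 TPM with guide 2. All guide 2 libraries were below 1 TPM and all controls above it, so CLEC10A reached the tested mean of 1 TPM through the controls alone. The log2 fold change was -0.91 (limma adjusted p = 0.198, or 0.00563 with the term). With the term it passed whichever library was left out, in fits that kept the same tested genes. A gene as low in both groups would not have been tested. Of the 6 tested conventional dendritic cell markers FCER1A fell, CLEC10A fell with the term, and FLT3, CADM1, CD1C and SIRPA did not pass. CD1 molecules present lipid antigens to T cells. CD1E was at 73.0, 83.9 and 83.9 TPM in the controls and 108, 107 and 114 TPM with guide 2. CD1B was at 6.01, 6.72 and 5.65 TPM and then 8.4997, 8.78 and 8.07 TPM. Neither gene's groups overlapped. CD1E had a log2 fold change of 0.45 (adjusted p = 0.0618, or 0.00206 with the term), and CD1B of 0.41 (0.230, or 0.0272 with the term). With the term CD1E passed in all 9 fits that left out a library, and CD1B in 3 (up to 0.163), those without NTC replicate 2 or KHSRPi#1 replicate 2 or 3. Of the 16 MHC class II genes tested, 14 were above 0, with a median of 0.11 and 0 called without the term. HLA-DQA1, a chain of an MHC class II molecule, was at 62.7, 62.4 and 63.4 TPM and then 72.5, 74.0 and 79.9 TPM. Its groups were apart, and it rose with the term by 0.26 (adjusted p = 0.0207, and 0.408 without); without NTC replicate 3 or any KHSRPi#2 library it was lost (up to 0.147). HLA-DRA was at 70.2, 71.8 and 69.4 TPM and then 78.6, 76.5 and 81.4 TPM, apart as well, and did not pass (0.16, adjusted p = 0.577, or 0.0993 with the term).

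Markers of other cell types were few. Of the B cell markers 4 of 12 reached the threshold, and all 12 summed to between 265 and 298 TPM in the controls and 282 and 315 TPM with guide 2. Those of T and NK cells (3 of 14) summed to 50.6 to 60.1 and 48.2 to 55.1 TPM, and those of monocytes and macrophages (2 of 12) to 76.1 to 130 and 75.3 to 107 TPM. No erythroid marker of 11 was tested. None of these members passed, their summed levels overlapped between the groups, and 3, 5, 4 and 7 of the listed markers, in that order, were at 0 in every library.

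**Figure D4:**
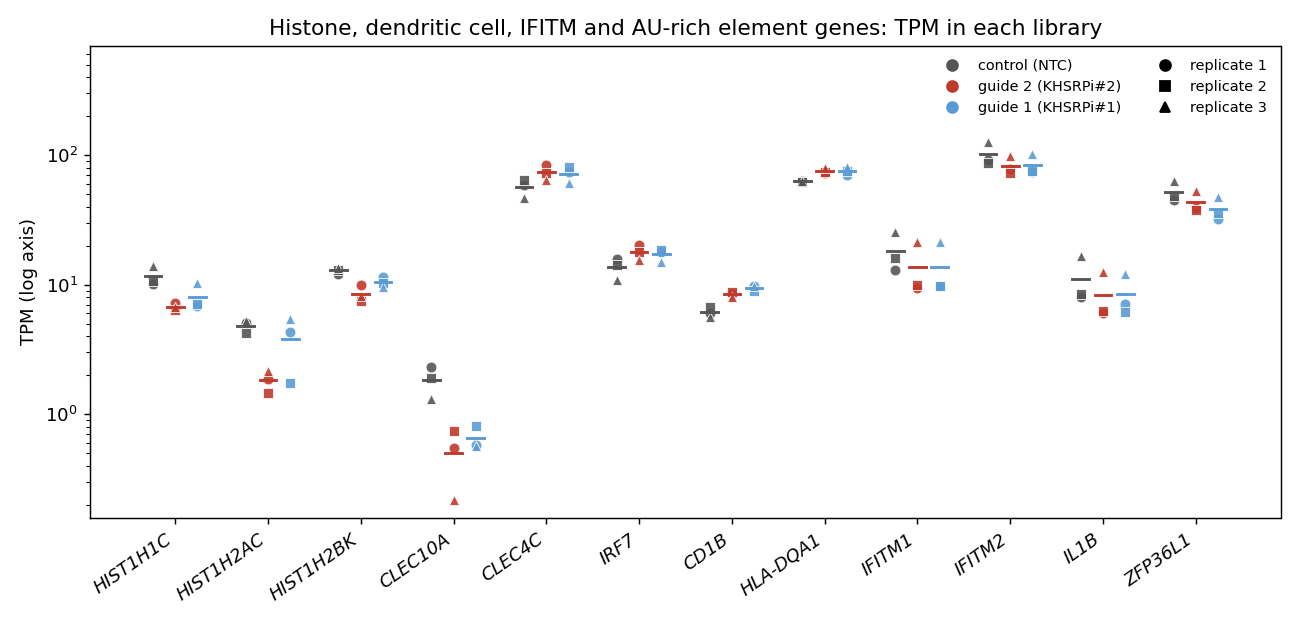
TPM of 12 genes in each library, on a log axis, with colours for the groups, symbols for the replicate number and bars for the means of 3 libraries. For HIST1H1C, HIST1H2AC, HIST1H2BK and CLEC10A every guide 2 library lies below every control, while for IFITM1, IFITM2, IL1B and ZFP36L1 replicate 3 is the highest library of each group and the groups overlap.

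Noncoding genes made up part of the rises. Of 416 tested genes that GENCODE lists as long noncoding, 2 rose without covariates and 10 with the term, and 0 fell in either fit. Of all genes 0.0366% and 0.603% rose, and of 9870 protein-coding genes 2 and 48. A further 436 tested symbols were not matched to GENCODE and are in neither class. With the term 7 of these rose and 1 fell, the noncoding gene GBAT2, described below. The median log2 fold change of the listed long noncoding genes was 0.11, and that of the protein-coding genes 0.03. Long noncoding genes are also low, with a median of 3.15 TPM in the controls against 23.99 TPM for protein-coding genes, and the median of all genes under 2 TPM in the controls was 0.07. LINC00565 was at 1.37, 1.28 and 0.854 TPM and at 3.57, 3.93 and 3.52 TPM with guide 2, far apart for so low a gene. Its log2 fold change was 1.11 (SE 0.11, adjusted p = 0.00452, or 0.000156 with the term), and it lies on chromosome 13 from 113926514 to 113928844, on the minus strand. ENO1-AS1 was at 1.57, 1.599 and 1.94 TPM in the controls and at 6.68, 4.00 and 6.03 TPM with guide 2 (log2 fold change 1.26, SE 0.16, adjusted p = 0.0219, or 0.00166 with the term). Without the term it was lost with no filter (0.127), with only the 2 groups compared (0.0579) and with replicates 1 and 2 alone (0.0629). It lies on chromosome 1 from 8878835 to 8879894 on the plus strand and overlaps the start of ENO1, which ends at 8879250 on the minus strand. The labels do not state strand-specific counting, so reads of this antisense gene and of its partner cannot be told apart. ENO1, a glycolytic enzyme, was far more abundant, at 1101, 1111 and 1006 TPM and then 1170, 1073 and 977 TPM. Its groups overlapped.

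Other noncoding genes passed with the term alone. LOC101928000 was at 18.1, 22.1 and 24.1 TPM and then 34.2, 30.5 and 41.0 TPM (log2 fold change 0.69, adjusted p = 0.146, or 0.00418 with the term), and passed there whichever library was left out. SNHG26, a small nucleolar RNA host gene, was at 56.4, 60.1 and 45.3 TPM and then 73.0, 71.9 and 68.1 TPM (0.40, adjusted p = 0.518, or 0.0112 with the term), and was lost there without NTC replicate 3 (0.0829). SEMA6A-AS1, an antisense gene to which the same limit on strand applies, was at 1.08, 1.77 and 1.63 TPM and then 3.06, 3.50 and 3.01 TPM. The 3 genes had no overlap between the groups. SEMA6A-AS1 had a log2 fold change of 0.76 (adjusted p = 0.198, or 0.0207 with the term) and was lost there without NTC replicate 1 or 3 or KHSRPi#2 replicate 1 or 2 (up to 0.1001).

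SLC23A1, the sodium-dependent vitamin C transporter named in the title of the series, was low in these cells. It was at 1.33, 1.54 and 1.56 TPM in the controls and at 2.44, 3.37 and 3.70 TPM with guide 2. Every guide 2 library was above every control, and the exact permutation p of its TPM was 0.1, the smallest possible. Its log2 fold change was 0.74 (SE 0.17, 95% interval 0.37 to 1.11, limma adjusted p = 0.385), and with the term the adjusted p was 0.0207. That call was lost without NTC replicate 3 or KHSRPi#2 replicate 2 or 3 (up to 0.112). SLC23A2, the related and more abundant transporter, was at 32.4, 33.5 and 30.3 TPM and then 38.0, 35.3 and 34.4 TPM, with no overlap and no call (0.16, adjusted p = 0.692, or 0.212 with the term). Of 16 tested genes of vitamin C transport and reduction SLC23A1 was the one that passed, with the term, and the list's median was 0.01. Of 33 ascorbate-dependent dioxygenases, which use vitamin C as a cofactor, 0 passed in either fit, and 18 were above 0.

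Replication-dependent histone genes had the lowest median of all lists with tested members. These genes are clustered, near-identical copies expressed in S phase, most of whose mRNAs end in a stem-loop in place of a poly(A) tail; reads may be split between copies, which makes single values uncertain. Of 19 tested members 17 were below 0, with a median log2 fold change of -0.30 against 0.03 for all genes. With replicates 1 and 2 alone it was -0.37 with 16 below 0, and over all alternatives it ran from -0.47 to -0.17. In 4 members all guide 2 libraries lay below all controls, against 3.49% of all genes. None passed without covariates, and 3 fell with the term, against 0.21% of all genes. HIST1H1C, a linker histone, was at 10.1, 10.7 and 13.9 TPM in the controls and at 7.22, 6.34 and 6.74 TPM with guide 2. HIST1H2AC was at 5.02, 4.21 and 5.24 TPM and then 1.87, 1.46 and 2.16 TPM. HIST1H2BK was at 12.1, 13.1 and 13.4 TPM and then 9.95, 7.51 and 8.13 TPM. In all 3 the groups were apart. Their log2 fold changes were -0.68 (adjusted p = 0.0109 with the term, 0.339 without), -1.04 (0.0411 and 0.408) and -0.55 (0.0210 and 0.192). HIST1H1C was lost without NTC replicate 3 (0.0749), HIST1H2BK without that library or KHSRPi#2 replicate 2 or 3 (up to 0.136), and HIST1H2AC without any of the 6 NTC and KHSRPi#2 libraries (up to 0.175). The 42 tested genes of the cell cycle and DNA replication had a median of -0.01, with 28 below 0 and 0 called in either fit.

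Genes of RNA processing were represented among those that fell. PSPC1, a paraspeckle protein, was at 53.9, 62.4 and 61.5 TPM and then 42.2, 44.1 and 42.8 TPM, with no overlap (log2 fold change -0.45, SE 0.07, adjusted p = 0.0682, or 0.00655 with the term). It was lost with the term without NTC replicate 3 or KHSRPi#2 replicate 3 (up to 0.0579). CSTF3, a subunit of the complex that cleaves the 3' end of mRNAs, was at 81.1, 84.3 and 85.6 TPM and then 67.6, 64.7 and 67.2 TPM. Its groups were narrow and apart (-0.33, SE 0.05, adjusted p = 0.0618, or 0.00387 with the term, where it passed whichever library was left out). HNRNPLL, a splicing regulator, was at 33.3, 35.5 and 36.9 TPM and then 28.5, 27.1 and 29.5 TPM, also apart (-0.30, adjusted p = 0.385, or 0.0207 with the term), and was lost there without NTC replicate 3 or KHSRPi#2 replicate 2 or 3 (up to 0.128). The lists around these genes had medians near 0: 0.002 for 19 paraspeckle genes, 0.006 for 22 genes of the 3' end machinery and -0.008 for 35 HNRNP and SRSF regulators. The paraspeckle and 3' end medians turned negative under both rescalings.

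Other genes that fell with the term had varied roles. ATP6V1F, a subunit of the proton pump that acidifies endosomes and lysosomes, was at 214, 197 and 225 TPM and then 164, 167 and 161 TPM. The groups did not overlap (-0.36, SE 0.06, adjusted p = 0.0682, or 0.00547 with the term), and the call with the term held whichever library was left out. CFDP1, a chromatin-associated protein, was at 125, 124 and 152 TPM and then 106, 99.0 and 107 TPM (-0.35, adjusted p = 0.408, or 0.0112 with the term), lost there without NTC replicate 3 or KHSRPi#2 replicate 3 (up to 0.0873). IFITM1 and IFITM2, interferon-induced membrane proteins that restrict viruses, had overlapping groups with replicate 3 highest in each: IFITM1 was at 13.0, 16.0 and 25.5 TPM and then 9.44, 9.92 and 21.4 TPM, and IFITM2 at 91.2, 87.8 and 127 TPM and then 77.9, 72.2 and 99.1 TPM. They fell with the term by 0.43 and 0.29 (adjusted p = 0.0385 and 0.0134, against 0.818 and 0.753 without). IFITM1 passed only without NTC replicate 2 or 3 (up to 0.146 without the others), and IFITM2 was lost without NTC replicate 3 or KHSRPi#2 replicate 2 or 3 (up to 0.113). The other 20 of the 22 tested interferon-stimulated genes did not pass, and the list's median was 0.003, negative under both rescalings.

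**Figure D5:**
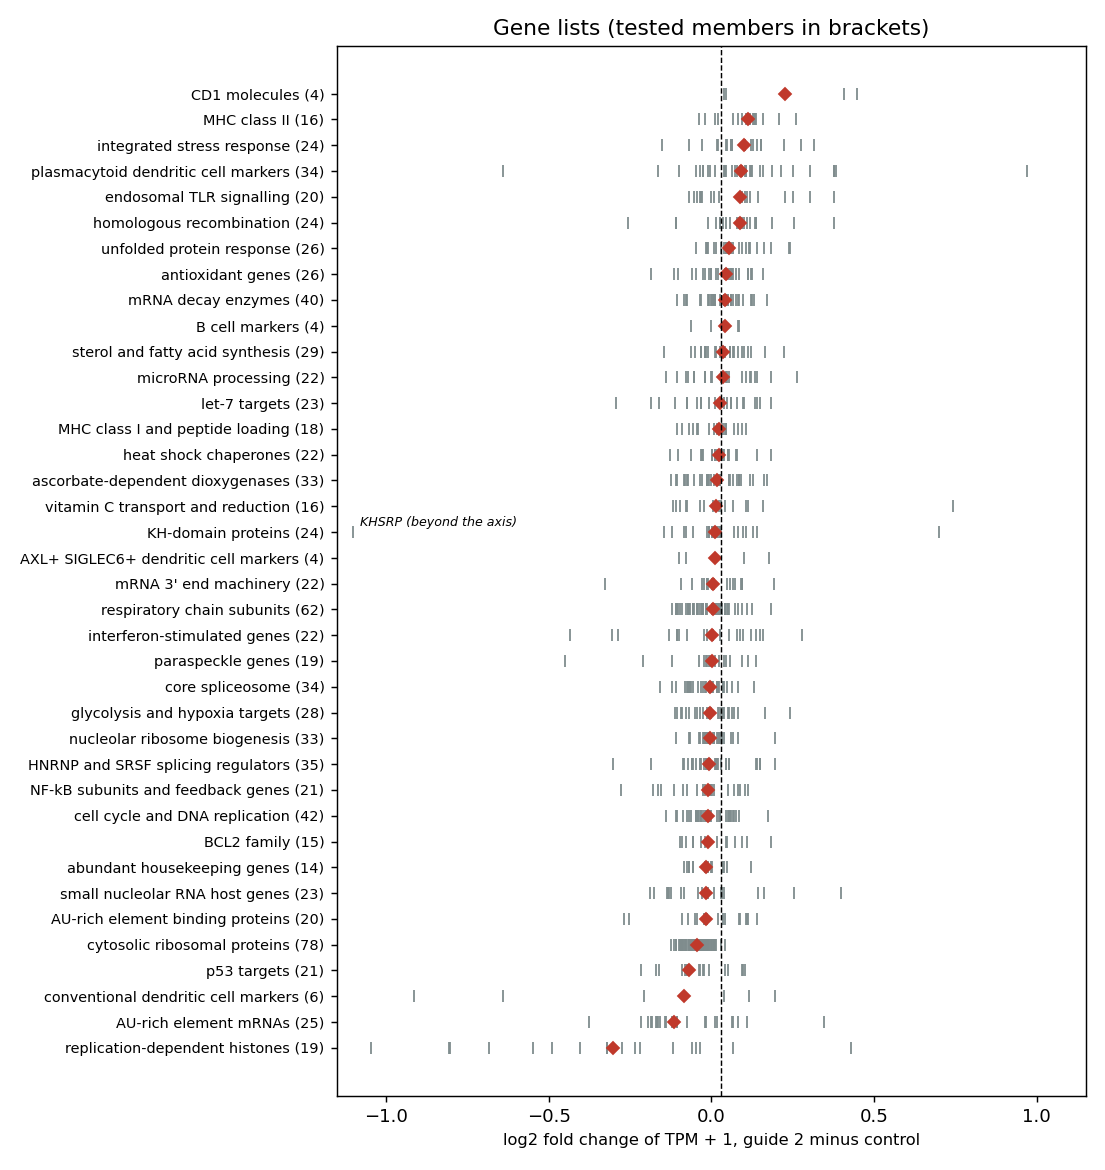
Log2 fold change of TPM + 1 (guide 2 minus control) of the tested members of each gene list with at least 4 tested members (ticks), their median (red diamonds) and the median of all tested genes (dashed line at 0.03). Replication-dependent histones (-0.30) and AU-rich element mRNAs (-0.12) have the lowest medians of the lists drawn and CD1 molecules (0.23) the highest; KHSRP, at -2.71, is drawn at the left edge.

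Lists with many members and small shifts were also described by counts. Cytosolic ribosomal proteins had 69 of 78 members below 0, with a median of -0.04 and 0 called in either fit; in 14 of them all guide 2 libraries lay below all controls, and in 1 above, where 3.49% and 7.85% of all tested genes did. Summed, they took 250730 to 261793 TPM with guide 2 and 259094 to 267548 TPM in the controls, so that the groups overlapped. Genes of the integrated stress response had 21 of 24 members above 0 (median 0.10), and those of the unfolded protein response 22 of 26 (median 0.06), with 0 called in either fit. Targets of p53 had 16 of 21 below 0 (median -0.07) and 0 called. Homologous recombination genes had 20 of 24 above 0 (median 0.09), and the member that passed, with the term, was RAD54L, a DNA repair helicase, in the opposite direction. It was at 41.9, 43.9 and 47.9 TPM and then 36.5, 37.1 and 37.8 TPM, with no overlap (-0.25, adjusted p = 0.440, or 0.0318 with the term), and passed in 1 of 9 fits that left out a library, that without NTC replicate 1 (up to 0.200). The signs of the medians in this paragraph held under both rescalings and whichever library was left out.

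Guide 2 was last compared with guide 1 directly, in a contrast that does not use the controls. No gene differed in the fits with all libraries, with or without the term (limma, 0 of 10938), while with the term ENO1-AS1 passed without KHSRPi#2 replicate 2, and GBAT2 and HIST1H2AC passed without KHSRPi#1 replicate 2; 116 genes (1.06%) had an unadjusted p under 0.05 without the term and 342 (3.13%) with it. For KHSRP the difference was 0.01 (95% interval -0.13 to 0.15) and for FUBP1 0.01 (-0.14 to 0.15). For SLC23A1 it was 0.001 (-0.37 to 0.37) and for GZMB -0.04 (-0.66 to 0.57), so that the intervals of the last pair leave room for sizeable differences. ENO1-AS1 was at 2.07, 2.55 and 2.77 TPM with guide 1, below every guide 2 library, and the difference of 0.90 (95% interval 0.55 to 1.254) did not pass over all genes (adjusted p = 0.913, or 0.134 with the term). GBAT2, a noncoding gene, was at 10.3, 10.05 and 9.28 TPM in the controls, 7.53, 6.70 and 5.94 TPM with guide 2 and 13.3, 10.1 and 11.04 TPM with guide 1. With the term it fell with guide 2 (-0.50, adjusted p = 0.0299, and 0.330 without), a call lost without NTC replicate 1 or 3 or any KHSRPi#2 library (up to 0.156). The difference between the guides of -0.69 did not pass (adjusted p = 0.813, or 0.0867 with the term). Against control FCER1A was at -0.64 with guide 2 and -0.43 with guide 1 on the log2 scale, both against the same 3 controls, and HIST1H2AC of -1.04 and -0.36; neither difference passed (adjusted p = 1.00 each, or 0.976 with the term).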

How the data were processed

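Libraries were made from column-purified total RNA, and the library entry reads Roche Kapa, per the labels' protocols. Values were deposited as TPM, in a single table with a row per gene symbol and columns that each sum to 1000000. Per the submitters' processing notes reads were handled on hg38; the sources used here name no aligner version, counter, annotation or strand setting. Columns were matched to samples by the labels; all carry the same batch label, and no 2 libraries held identical values. TPM takes no count model, so log2(TPM + 1) of the 10938 genes was tested in R 4.3.3 with limma 3.58.1 (two-sided, intensity trend in eBayes), in 1 fit over 9 libraries in 3 groups. Calls were made at a Benjamini-Hochberg adjusted p under 0.05 over all 10938. The table ended at ASTN2 and DFFB (mean 1.0002 and 1.0011 TPM) just inside the minimum of 1 TPM, with SNX21 and TBC1D10C (0.9994 and 0.9984) just outside. The members, lists and tests were chosen with earlier results of these data known. Named genes were KHSRP, FUBP1, FUBP3, SLC23A1 and SLC23A2; every gene called without covariates; those with the largest fold changes in a fit with a replicate block and the same sign in all 3 numbered pairs; the list members with the smallest p in that fit; the genes with the smallest p between the guides; neighbours of KHSRP; and antisense partners. TNF, PLAUR, TLR7, TLR9 and HLA-DRA were added after their values were seen. Symbols matched GENCODE 29 for 10502 genes (96.0%). Promoters are from RefSeq (GRCh38.p14). Python 3.11.15, numpy 2.4.6, pandas 2.3.3 and matplotlib 3.10.9 were used; the fit was tested on simulated data. Alternatives were other pseudocounts, filters, scalings and covariates, and leaving out libraries.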

Additional observations from a re-analysis of the deposited data

How the results depend on the processing

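TPM without read totals gives no counting error, and 3 libraries a group limit what can pass. Without covariates 4 genes rose and 2 fell; higher against lower calls were 2 and 2 with a filter at a mean of 5 TPM, 4 and 5 with median-ratio rescaling, 4 and 4 with quantile normalization, 2 and 1 with only the control and guide 2 groups in the fit, 3 and 1 with replicates 1 and 2 only, 66 and 23 with the term for replicate 3, and 58 and 43 or 68 and 45 with the term and median-ratio rescaling or quantile normalization. Leaving out each of 9 libraries gave 2 to 4 higher and 1 to 2 lower genes without covariates, and 20 to 116 and 6 to 23 with the term. The replicate numbers did not pair the libraries by the rule used (every same-numbered correlation over 0.1): the same-numbered control and guide 2 libraries had correlations of 0.042, 0.23 and 0.62 of their deviations from the group means, and 2 of 6 libraries correlated best with their own number. With a replicate block 67 rose and 25 fell, or 40 and 34 with median-ratio rescaling, 51 and 34 with quantile normalization, 61 and 23 with a pseudocount of 0.1, 65 and 27 with a pseudocount of 5, and 5 and 2 with only the groups compared; leaving out a library with the block gave 16 to 110 and 5 to 24 (higher 33 without NTC replicate 1 and 21 without NTC replicate 3; lower 14 without NTC replicate 1, 12 without NTC replicate 2 and 21 without KHSRPi#2 replicate 1). All 6 genes called without covariates passed in the block fit and in the fit with the term. Between the guides 1 gene differed under the block (GBAT2, adjusted p = 0.0267, against 0.813 without covariates), 1 without the filter (OPA1-AS1), and 0 to 3 when a library was left out. The FUBP3 log2 fold change of 0.02 was -0.0121 with median-ratio rescaling, alone, with the block or with the term. Leaving out a library it ran from -0.0408 without KHSRPi#2 replicate 1 (-0.0547 with the block, -0.0391 with the term) to 0.0531 without KHSRPi#2 replicate 2 (0.0724 with the block, 0.0632 with the term), and was -0.00397 without NTC replicate 1 with the block. The cause of these changes was not tested. KHSRP passed in the same direction under every alternative run.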

Other observations

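Further genes met the rule for named genes and are given as values. GJB2, a gap junction connexin, was at 10.7, 12.3 and 16.5 TPM in the controls and 8.99, 8.72 and 11.9 TPM with guide 2, with overlapping groups (log2 fold change -0.37, limma adjusted p = 0.705, or 0.0411 with the term for replicate 3). In 9 fits with the term that left out a library it passed in 1, that without NTC replicate 1 (up to 0.224). CCL2, a chemokine for monocytes, was at 7.75, 5.25 and 3.73 TPM and then 4.102, 3.14 and 2.41 TPM, and did not pass (-0.62, adjusted p = 0.692, or 0.0944 with the term). CD300A, an inhibitory receptor of myeloid cells, was at 24.01, 19.9 and 38.0 TPM and then 19.3, 15.7 and 29.3 TPM, and did not pass either (-0.33, adjusted p = 0.820, or 0.105 with the term). None of the 3 passed without covariates.

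Some low genes rose with the term. METTL27 was at 0.572, 0.388 and 0.888 TPM and then 1.246, 1.46 and 2.497 TPM, and TMEM81 at 4.92, 5.23 and 5.77 TPM and then 7.11, 7.65 and 9.52 TPM. In both, every guide 2 library was above every control. The controls of METTL27 were all below 1 TPM, so it reached the tested mean of 1 TPM through guide 2 alone. A gene with its control level that did not rise would not have been tested. Their log2 fold changes were 0.74 and 0.52 (adjusted p = 0.0207 and 0.0118 with the term, 0.577 and 0.230 without). METTL27 was lost with the term without NTC replicate 3 or any KHSRPi#2 library (up to 0.126), and TMEM81 without NTC replicate 3 or KHSRPi#2 replicate 3 (up to 0.109). By control level the tested genes had median log2 fold changes of 0.07 under 2 TPM (730 genes), 0.05 from 2 to 10 TPM (2707), 0.04 from 10 to 50 TPM (4567), 0.01 from 50 to 200 TPM (2232) and -0.01 above (702).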
